A study of Mus musculus with 6 samples.

Results

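The genes described here carry the names of genes for proteins of the cytosolic ribosome. Whether the product of each, paralogs among them, is part of the finished ribosome was not checked. They were chosen by name from the deposited count tables. The whole symbol had to be Rpl or Rps and a number, alone or with an ending a, x, l or al, with or without a further number. The P-stalk genes Rplp0, Rplp1 and Rplp2 and the gene Rpsa were included, and names of pseudogenes were not. Rows also had to hold at least 100 counts in every library. Of 34591 gene rows, 84 carried such a name and 82 of these passed the floor, 50 for the large subunit and 32 for the small subunit. The names that failed were Rpl3l and Rpl10l. The data are gene counts from 6 bulk RNA-seq libraries of brain tumours from a mouse model of WNT medulloblastoma, a hindbrain tumour driven by WNT signalling. The labels name 3 libraries as sh2-Ift88, a knock-down of Ift88 with a short hairpin RNA, and 3 as control, and both groups are of the same tumour model. Ift88 belongs to the transport machinery with which cells assemble primary cilia, and the title of the series links cilia to translation. Strain, age, driver alleles, the control hairpin and the number of animals are not in the labels used here, so p-values measure the spread between these libraries, which may be technical.

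The ribosome has a large subunit, which joins amino acids, and a small subunit, which reads the messenger RNA. Each carries 1 copy of nearly every ribosomal protein, so their synthesis is kept close to balance in growing cells. Nearly all vertebrate ribosomal protein mRNAs start with a run of pyrimidines, the terminal oligopyrimidine (TOP) tract, through which the growth kinase mTOR and the RNA-binding protein LARP1 set their translation. Gene counts measure the amount of these mRNAs and not how often they are translated. Some ribosomal protein genes have a paralog elsewhere in the genome that encodes a like protein and is often tissue-restricted.

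Gene counts per library ran from 26802618 to 33772559 in libraries labelled sh2-Ift88 and from 27876540 to 32709246 in controls. The hairpin target did not differ beyond its spread: Ift88 was at 15.05 ± 0.859 CPM in libraries labelled sh2-Ift88 and at 15.7 ± 3.47 CPM in controls (CPM, gene counts scaled to a common library size with TMM factors, mean ± SD, n = 3 each). The labels are therefore not checked by their target. The WNT tumour markers Axin2, Lef1, Wif1, Nkd1, Dkk4 and Ctnnb1 summed to between 3612 and 4776 CPM in libraries labelled sh2-Ift88 and to between 2832 and 5285 CPM in controls, with Dkk4 at 0 in control 3. The 8 markers of mature neurons ran from 18.3 to 213 CPM in libraries labelled sh2-Ift88 and from 56.6 to 492 CPM in controls, with Gabra6 at 0 in control 1. Both these and the 5 astrocyte markers, at 46.8 to 406 CPM in libraries labelled sh2-Ift88 and 66.05 to 674 CPM in controls, were lowest in sh2-Ift88 3 and control 1 within their groups. The library labelled sh2-Ift88 3 stood apart in makeup. The rows that held over 1% of the counts of any library were taken as 1 set. They took 51.4% of its counts, against 12.4% to 20.5% in the other libraries. Its TMM factor was 0.5978, so its scaled values rest on that correction. Reads tallied as not aligned made up 10.2% in that library, against 2.93% to 3.96% in the others. Reads tallied as ambiguous made up 4.37%, against 0.876% to 1.6% in the others.

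The start of the gene is shown, because the TOP tract lies there, for the paralogs compared with their partners and for the other genes named below for a small p or groups that do not overlap, where a sequence was found. A promoter sequence was found for 62 of the 82 genes in RefSeq (build GRCm38.p6). In 31 of the 62 (50%), a run of at least 8 C or T on the sense strand touched the 15 bases on either side of an annotated start, against 20% of 27025 genes. The sequences cover 30 bases before the annotated start and 20 after it, and capitals mark each such run.
Rpl35 (chr2:39005112-39005161, minus strand): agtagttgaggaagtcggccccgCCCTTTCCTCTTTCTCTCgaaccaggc
Rpl7a (chr2:26910777-26910826, plus strand): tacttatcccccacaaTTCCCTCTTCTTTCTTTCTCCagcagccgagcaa
Rpl37a (chr1:72711230-72711279, plus strand): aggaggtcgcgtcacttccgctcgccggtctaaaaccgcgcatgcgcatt
Rpl24 (chr16:55966245-55966294, plus strand): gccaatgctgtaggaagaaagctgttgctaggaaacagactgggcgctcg
Rps12 (chr10:23787190-23787239, minus strand): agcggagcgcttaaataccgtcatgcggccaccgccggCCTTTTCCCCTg
Rpl22l1 (chr3:28805478-28805527, plus strand): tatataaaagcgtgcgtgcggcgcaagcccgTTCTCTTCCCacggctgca
Rpl22 (chr4:152324406-152324455, plus strand): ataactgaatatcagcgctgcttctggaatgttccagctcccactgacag
Rps27l (chr9:66946056-66946105, plus strand): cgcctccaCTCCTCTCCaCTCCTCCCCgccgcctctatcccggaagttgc
Rps27 (chr3:90213629-90213678, minus strand): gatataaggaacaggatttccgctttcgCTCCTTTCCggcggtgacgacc
Rpl39l (chr16:10170198-10170247, plus strand): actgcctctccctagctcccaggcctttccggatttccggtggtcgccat
Rpl39 (chrX:37085203-37085252, minus strand): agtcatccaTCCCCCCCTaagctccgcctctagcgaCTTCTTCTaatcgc
Rpl36al (chr12:69184048-69184097, minus strand): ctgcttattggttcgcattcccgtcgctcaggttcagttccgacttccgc
Rpl36a (chrX:134585624-134585673, plus strand): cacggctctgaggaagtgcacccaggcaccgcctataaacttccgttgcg
Rpl7l1 (chr17:46782637-46782686, minus strand): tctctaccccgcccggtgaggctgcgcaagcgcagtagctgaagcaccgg
The runs of Rpl35, Rpl7a and Rps12 were 18, 21 and 11 bases long, and Rps27l and Rpl39 held 2 runs each. Both runs of Rps27l and the first run of Rpl39 lay wholly before the annotated start. Rpl37a, Rpl24, Rpl7l1, Rpl39l, Rpl36al and Rpl36a held no run of at least 8 bases near the annotated start, nor did Rpl22 at the start shown. A run near the annotated start is not a shown TOP tract, and lack of a run does not show that the tract is absent.

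Over the whole 300-base promoter windows, the letters CCGGAAG, the core bound by ETS factors, were found on either strand in 26 of the 62 genes (41.9%), against 9.93% of all genes. The TATA letters TATAAA were found in 7 (11.3%, against 15.7% of all genes). The E-box CACGTG, which MYC can bind, was found in 6 (9.68%, against 8.09% of all genes). None of the letter strings contains another, and a match is a string of letters and not a shown site.

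**Figure D1:**
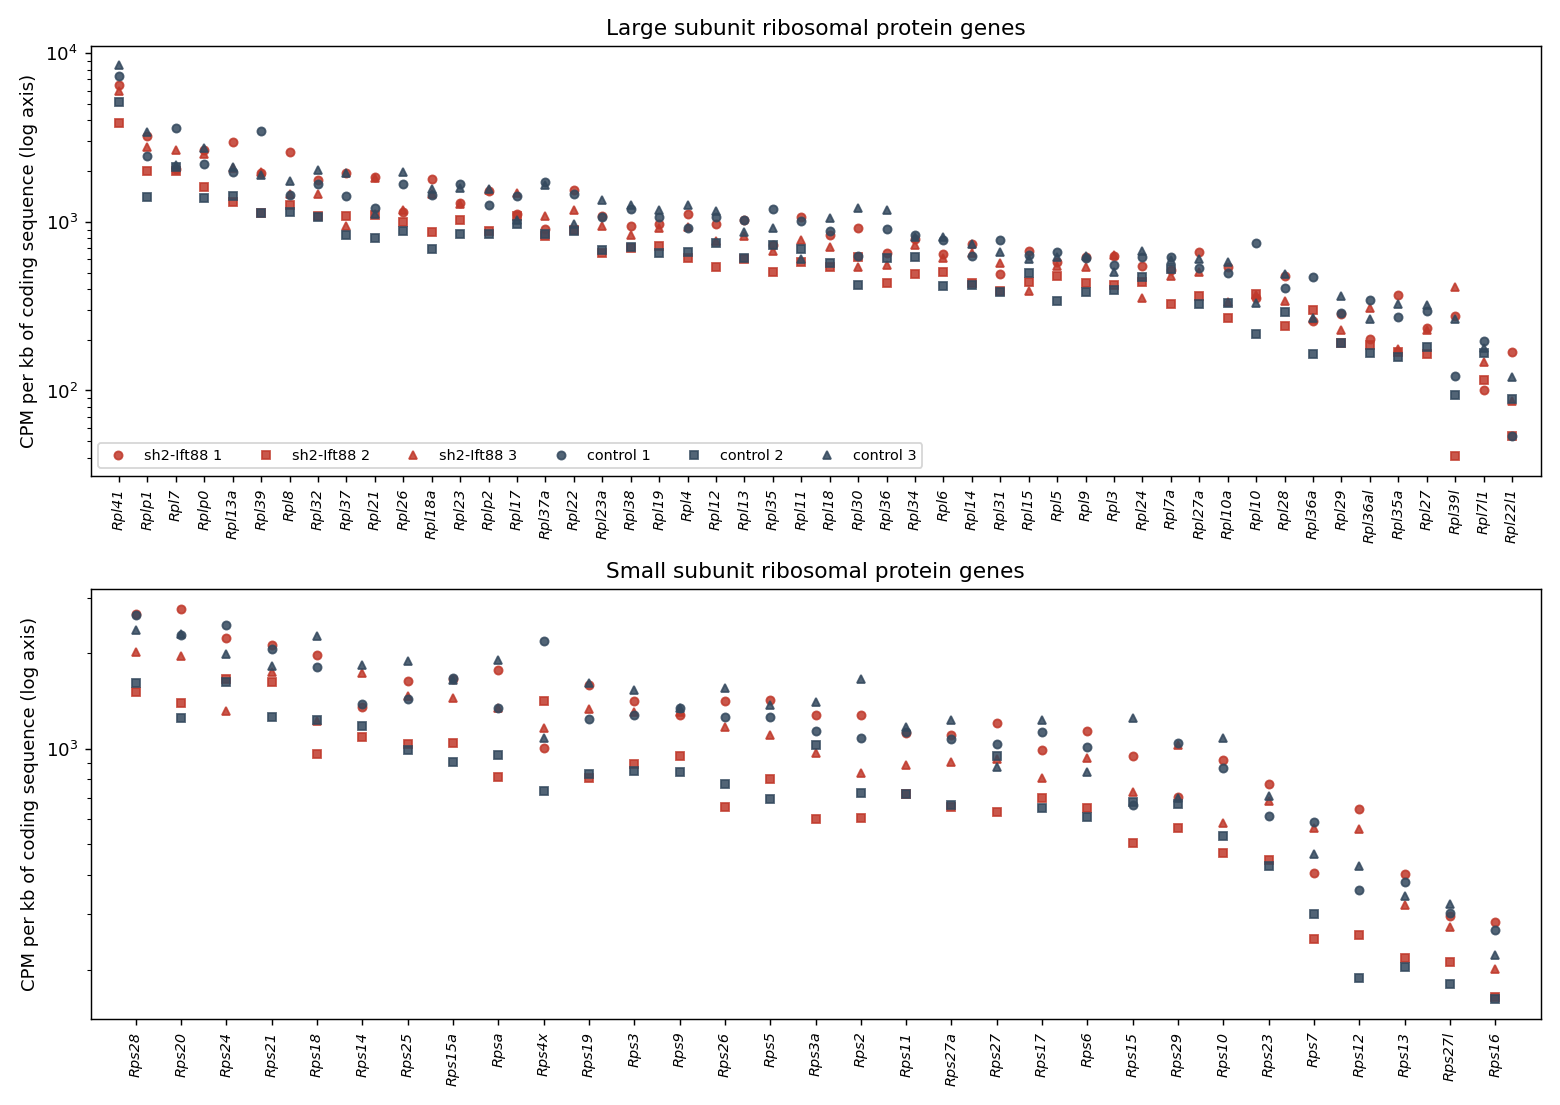
Level of 81 of the 82 genes in CPM per kilobase of coding sequence (log axis), large subunit above and small subunit below, with 1 point per library in the 3 libraries labelled sh2-Ift88 and the 3 controls. Rpl41 stands at the top with a mean of 6206 and Rpl22l1 at the bottom with 95.2.

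To compare levels between genes, CPM was divided by the length of the coding sequence in kilobases. By that measure the highest mean levels over all 6 libraries were those of Rpl41 (6206 CPM per kilobase of coding sequence), Rplp1 (2550), Rpl7 (2430), Rplp0 (2190) and Rps28 (2135). Rpl41 encodes a very short peptide, of 75 coding bases without the stop codon, and per kilobase of whole transcript it took rank 21 with 855.5. Rplp1, Rpl7 and Rplp0 were the top 3 per kilobase of transcript, with 1747, 1693 and 1534. The lowest mean levels per kilobase of coding sequence were those of the paralogs Rpl22l1 (95.2), Rpl7l1 (150.9) and Rpl39l (201.7), followed by Rps16 (217) and Rpl27 (237). In the spread over libraries, the lowest 5 genes overlap: Rpl39l ran from 40.9 to 413 CPM per kilobase of coding sequence and Rps16 from 161 to 283. The median gene of the small subunit stood at 1090 CPM per kilobase of coding sequence and that of the large subunit at 775. Per kilobase of transcript the small subunit was again the higher, with a median of 693 against 471. These medians leave out the pseudogene rows described below. They include the low paralogs Rpl22l1, Rpl7l1 and Rpl39l, all of the large subunit. The measure per kilobase of transcript also depends on the transcript chosen. For example, Rps20 had a transcript of 3706 bases for 357 coding bases. It took rank 69 per kilobase of transcript, against rank 6 per kilobase of coding sequence.

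Rows named as pseudogenes of ribosomal protein genes, many of them processed copies that resemble the mRNA, also held counts. For 53 of the genes the tables held 171 such rows. Summed over these rows, counts came to between 12.27% and 12.88% of the counts of the 82 genes in libraries labelled sh2-Ift88 and to between 12.39% and 12.83% in controls. Pseudogene rows held over 10% of the combined counts in every library for 23 genes and over 50% for 5. Those 5, named after their values were seen, were Rpl35a, with shares from 72.5% to 76.2%, Rpl27 (62.5% to 63.8%), Rps16 (53.1% to 56.2%), Rpl9 (51.8% to 52.9%) and Rps12 (51.2% to 54.2%). How the authors assigned reads that match both a gene and its copies is not given in the sources used here, so the levels of these genes are uncertain. With the pseudogene rows added, Rpl35a moved to rank 43 per kilobase of coding sequence, against rank 77 without them, and Rps16 to rank 74, against rank 79. For Rpl10 the pseudogene rows held 0.9777, 0.9653 and 0.9806 times the gene's counts in libraries labelled sh2-Ift88 and 0.9679, 0.92 and 1.025 times in controls. That ratio stayed close to constant, while the level of Rpl10 itself ran from 138 to 479 CPM.

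**Figure D2:**
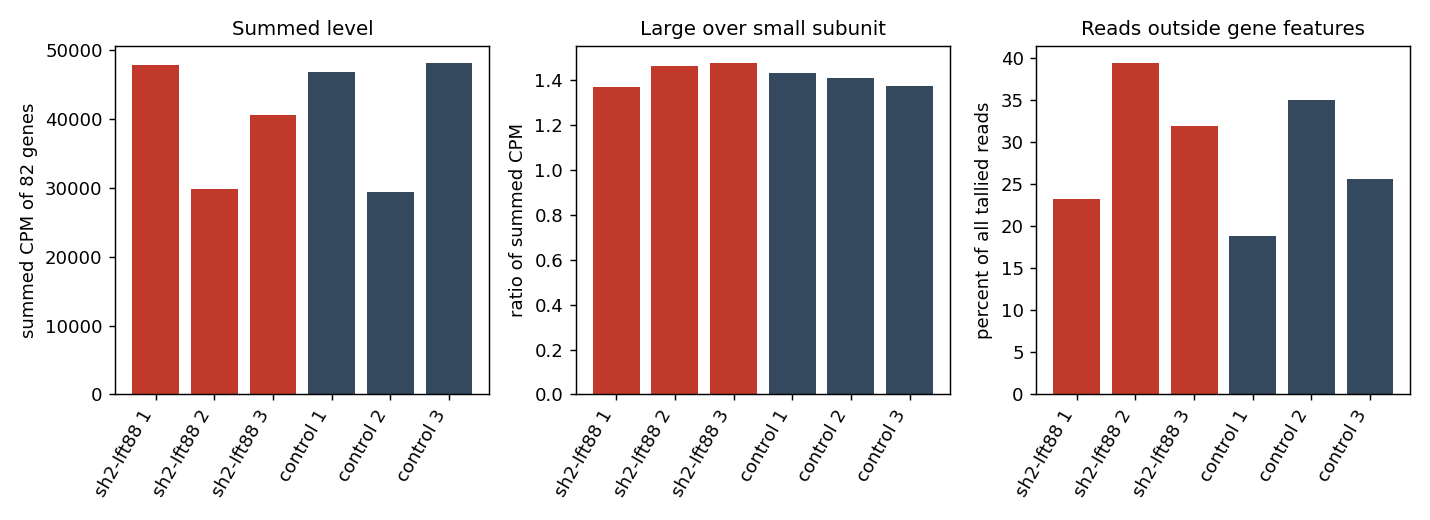
Summed CPM of the 82 genes (left), ratio of summed large to small subunit CPM (middle) and percent of all tallied reads outside annotated features (right), with 1 bar per library, the 3 libraries labelled sh2-Ift88 to the left of the 3 controls. The libraries labelled sh2-Ift88 2 and control 2 have the lowest sums, 29822 and 29329 CPM, and the largest shares of reads outside features, 39.5% and 35.0%.

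The summed level of the 82 genes varied more within each group than between the groups. It was 47782, 29822 and 40611 CPM in libraries labelled sh2-Ift88 and 46778, 29329 and 48195 CPM in controls, with means of 39405 ± 9041 and 41434 ± 10510 CPM (SD, n = 3 each). In each group, library 2 was the lowest. The difference in mean log2 sum, sh2-Ift88 minus control, was -0.064 (exact permutation test, two-sided, p = 0.9, where 3 libraries against 3 cannot go below 0.1). It was -0.43 (p = 0.5 by the same exact test) with library totals in place of TMM factors, a scaling that moved the median log2 fold change of all genes to -0.33. The sign turned when single libraries were left out, to 0.039 without control 1, 0.057 without control 3 and 0.12 without sh2-Ift88 2, and the difference was -0.30 without control 2, -0.24 without sh2-Ift88 1 and -0.13 without sh2-Ift88 3. In a bulk tumour sample, fewer cells rich in these mRNAs and less mRNA per cell cannot be told apart.

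The genes moved together across libraries. The lowest of the 6 libraries was sh2-Ift88 2 for 36 genes and control 2 for 42, which is 78 of 82. The highest was sh2-Ift88 1 for 23, sh2-Ift88 3 for 3, control 1 for 19 and control 3 for 37. For none of the 82 was the highest library sh2-Ift88 2 or control 2. Neither these counts nor the correlations below were taken over other genes, so they do not set these genes apart from the rest. Reads outside annotated features took 23.3%, 39.5% and 31.9% of tallied reads in libraries labelled sh2-Ift88 and 18.8%, 35.0% and 25.6% in controls, so the libraries with the lowest ribosomal protein sums had the largest shares. The 6 proliferation markers summed to 999.1, 422 and 1088 CPM in libraries labelled sh2-Ift88 and to 812, 1024 and 1381 CPM in controls. They were lowest in sh2-Ift88 2, but control 2 was not low. The part of either measure in the ribosomal protein sums was not tested.

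As a description over 6 libraries that share depth and scaling, the log2 level of each gene was correlated with the mean of the other 81. Pearson's r had a median of 0.8955, was over 0.9 for 39 genes and over 0.8 for 53. It was highest for Rps27a (0.991), which encodes a small subunit protein fused to ubiquitin. It was under 0.5 for 6 genes, named after their values were seen: Rpl7l1 (0.186), Rps4x (0.318), Rpl17 (0.378), Rpl7 (0.424), Rpl22l1 (0.430) and Rpl36a (0.484). Rps4x and Rpl36a lie on the X chromosome, where Rpl10 had 0.504 and Rpl39 0.835. Rpl7l1 and Rpl22l1 are paralogs, and the other paralogs had higher values, of 0.967 for Rps27l, 0.707 for Rpl39l and 0.680 for Rpl36al. The SD of log2 CPM over all 6 libraries had a median of 0.404 over the 82 genes, against 0.366 over 3897 other genes with a mean of at least 50 CPM. The most variable genes were Rpl39l (1.234), Rps12 (0.6724), Rpl22l1 (0.6476), Rpl39 (0.6009) and Rpl10 (0.5762). The least variable were Rpl17 (0.249), Rps21 (0.273), Rpl3 (0.289), Rpl9 and Rps9 (0.296 each).

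The balance between the subunits differed little between libraries. The ratio of summed large to summed small subunit CPM, a within-library value that no scaling factor changes, was 1.371, 1.464 and 1.479 in libraries labelled sh2-Ift88 and 1.431, 1.412 and 1.376 in controls. Its means were 1.438 ± 0.0587 and 1.406 ± 0.0279 (SD, n = 3 each), and the groups overlapped. The difference in mean log2 ratio was 0.032 (exact permutation test, two-sided, p = 0.5). It turned to -0.052 with the mean log2 CPM per gene (p = 0.2 by the same exact test) and to -0.033 with CPM per kilobase of coding sequence (p = 0.5), and it was 0.066 without sh2-Ift88 1 and 0.011 without sh2-Ift88 3.

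**Figure D3:**
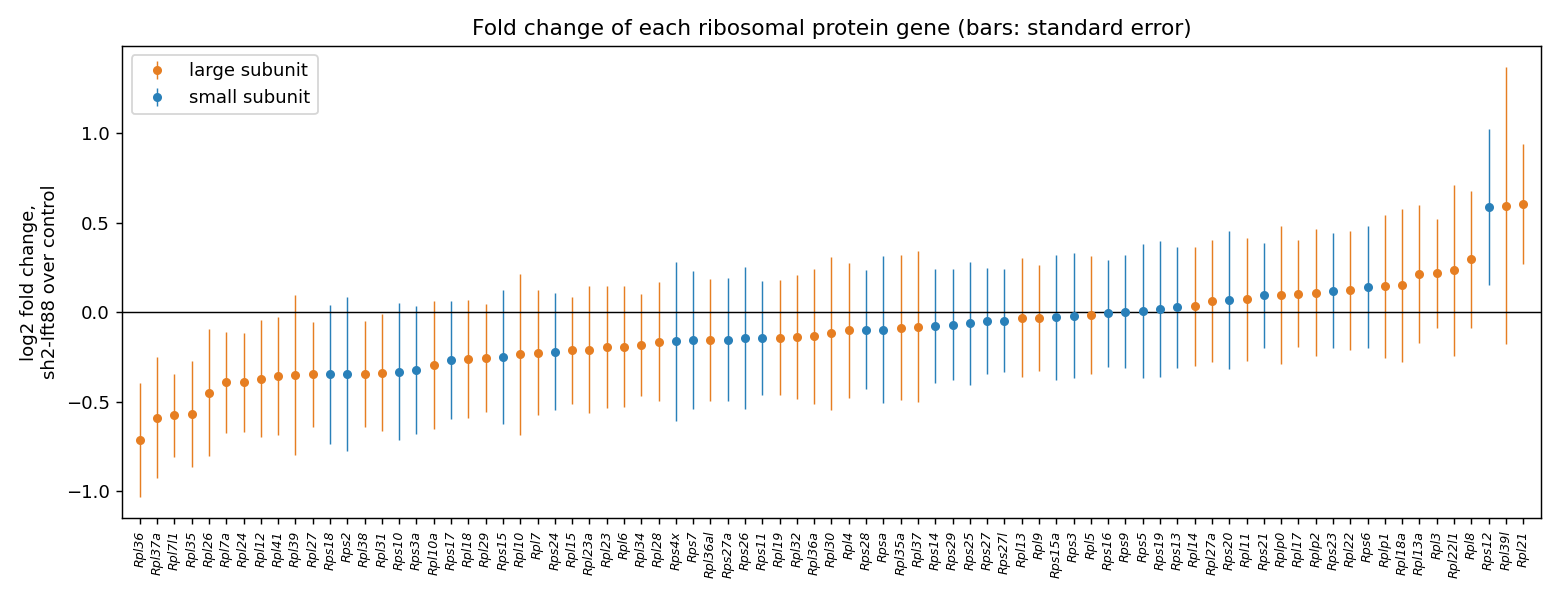
Log2 fold change, sh2-Ift88 over control, of 81 of the 82 genes in the edgeR fit (points) with its standard error (bars), ordered by value and coloured by subunit. Values run from -0.71 for Rpl36 to 0.60 for Rpl21, and 57 of 81 lie below 0.

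No ribosomal protein gene passed the test between the groups. With edgeR's quasi-likelihood test and Benjamini-Hochberg adjustment at 0.05 over 16768 genes, 0 of the 82 and 0 of all genes (0%) were called, with no adjusted p below 0.9995. Without adjustment, p was under 0.05 for 1 of the 82, which was lower in libraries labelled sh2-Ift88, against 1.26% of all genes that were lower, 1.97% that were higher and 3.23% in either direction. DESeq2 called 0 of the 82, against 44 higher (0.262%) and 12 lower (0.0716%) of all genes. The fold change was below 0 for 57 of the 82 (69.5%), against 51.3% of all genes, with a median log2 fold change of -0.11, against -0.012 over all genes. For the large subunit 35 of 50 were below 0 (median -0.15) and for the small subunit 22 of 32 (median -0.066). The genes share their libraries and are not independent of each other. The count was 41 below 0 and 41 above without control 1, 37 below and 45 above without control 3, and 36 below and 46 above without sh2-Ift88 2. It was 74 below 0 without control 2, 77 without sh2-Ift88 1, and 63 without sh2-Ift88 3. With library totals alone, the median log2 fold change of the 82 genes minus that of all genes was -0.127, against -0.099 with TMM factors.

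In 2 genes every library labelled sh2-Ift88 lay below every control, against 3.69% of all genes. None of the 82 lay above in every library, against 4.70% of all genes. Rpl7l1, a paralog named for its likeness to the large subunit gene Rpl7, was at 74.5, 85.4 and 108.4 CPM in libraries labelled sh2-Ift88 and at 144.7, 123 and 132 CPM in controls. The gap lies between sh2-Ift88 3 and control 2. On the log2 scale the fold change was -0.58, standard error 0.23 (edgeR's quasi-likelihood test, unadjusted p = 0.0408, adjusted p = 0.9995). Rpl7a, a large subunit protein whose start is shown above, was at 413, 260.4 and 383 CPM in libraries labelled sh2-Ift88. It was at 497, 419 and 472 CPM in controls. Its highest library labelled sh2-Ift88 and its lowest control were close, and the log2 fold change of -0.39 had a standard error of 0.28 (unadjusted p = 0.203).

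The other genes with the smallest p among those below 0 were all of the large subunit. Rpl36 was at 205 CPM in sh2-Ift88 1, 137 in sh2-Ift88 2 and 174 in sh2-Ift88 3, against 285, 194 and 369 CPM in control 1, 2 and 3 (log2 fold change -0.71, standard error 0.32). Rpl35, which sits near the exit of the tunnel for the new peptide, was at 270.2, 186 and 249 CPM in libraries labelled sh2-Ift88, against 441, 268 and 338 CPM in controls (-0.57, standard error 0.29). In both genes the lowest control lay below at least 1 library labelled sh2-Ift88. Rpl37a was at 250.4, 226 and 297 CPM in libraries labelled sh2-Ift88, against 477, 233 and 454 CPM in controls (-0.59, standard error 0.34), with control 2 at the level of the libraries labelled sh2-Ift88. Rpl24, whose loss of 1 copy gives the Belly spot and tail mouse, was at 257, 207 and 166 CPM in libraries labelled sh2-Ift88, against 292, 220.5 and 314 CPM in controls (-0.39, standard error 0.28). The groups overlapped here too.

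Above 0, the genes with the smallest p were Rpl21, Rps12, Rpl8, Rpl39l and Rpl3, and in each the groups overlapped. Rpl21 was at 890.5, 524 and 879 CPM in libraries labelled sh2-Ift88, against 583, 387 and 538 CPM in controls. Its log2 fold change was 0.60 (standard error 0.33, unadjusted p = 0.111 in edgeR's quasi-likelihood test). Only sh2-Ift88 2 lay within the range of the controls. Rps12, a small subunit protein, was at 256, 102 and 221 CPM in libraries labelled sh2-Ift88, against 141, 74.6 and 169 CPM in controls (0.59, standard error 0.44), and its pseudogene rows hold more counts than the gene itself. Rpl8, which lies by the peptidyl transferase centre, was at 1999, 971 and 1124 CPM in libraries labelled sh2-Ift88, against 1109, 886 and 1346 CPM in controls (0.29, standard error 0.38). Its high library was sh2-Ift88 1, and without that library the value turned to -0.11. Rpl3, a core protein of the large subunit, was at 759, 513 and 767 CPM in libraries labelled sh2-Ift88, against 669, 474 and 613 CPM in controls (0.22, standard error 0.30), and turned to -0.14 with library totals alone, which moved the median of all genes to -0.33.

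The proteins of the P stalk, which recruits the elongation factors, followed the summed level. Rplp0, the base of the stalk, was at 2527, 1537 and 2391 CPM in libraries labelled sh2-Ift88 and at 2108, 1313 and 2620 CPM in controls. Its partner Rplp1 was at 1103, 687 and 957 CPM in libraries labelled sh2-Ift88 and at 845, 479 and 1160.2 CPM in controls. Rplp2 was at 526, 304 and 533 CPM in libraries labelled sh2-Ift88 and at 433, 293 and 539 CPM in controls. For all 3 the lowest library of each group was library 2, and the groups overlapped.

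Rpl5 and Rpl11 reach the ribosome together and, when free, bind the p53 regulator Mdm2. Rpl5 was at 518, 427 and 486.5 CPM in libraries labelled sh2-Ift88 and at 590.1, 301 and 555 CPM in controls. Rpl11 was at 568, 308 and 419 CPM in libraries labelled sh2-Ift88 and at 539, 370.4 and 322 CPM in controls. The pair parted in control 3, where Rpl11 was low and Rpl5 was not. It parted the other way in control 2, where Rpl5 had its lowest level and Rpl11 did not. Rpl4, which lines the peptide tunnel, was at 1395, 769.7 and 1167 CPM in libraries labelled sh2-Ift88 and at 1154, 832 and 1591 CPM in controls.

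In the small subunit, Rpsa, also known as the laminin receptor, was at 1562, 721 and 1189.7 CPM in libraries labelled sh2-Ift88 and at 1191, 846 and 1679 CPM in controls. Rps6, the substrate of the S6 kinases downstream of mTOR, was at 848, 486 and 698 CPM in libraries labelled sh2-Ift88 and at 758, 455 and 631 CPM in controls. Rps19, the gene most often mutated in human Diamond-Blackfan anaemia, was at 693, 351 and 580.1 CPM in libraries labelled sh2-Ift88 and at 541, 362 and 701 CPM in controls. In each of these genes the groups overlapped and library 2 was the lowest of its group. Rps27a was at 515, 306 and 426 CPM in libraries labelled sh2-Ift88 and at 502, 311 and 575 CPM in controls, with the same lowest libraries.

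**Figure D4:**
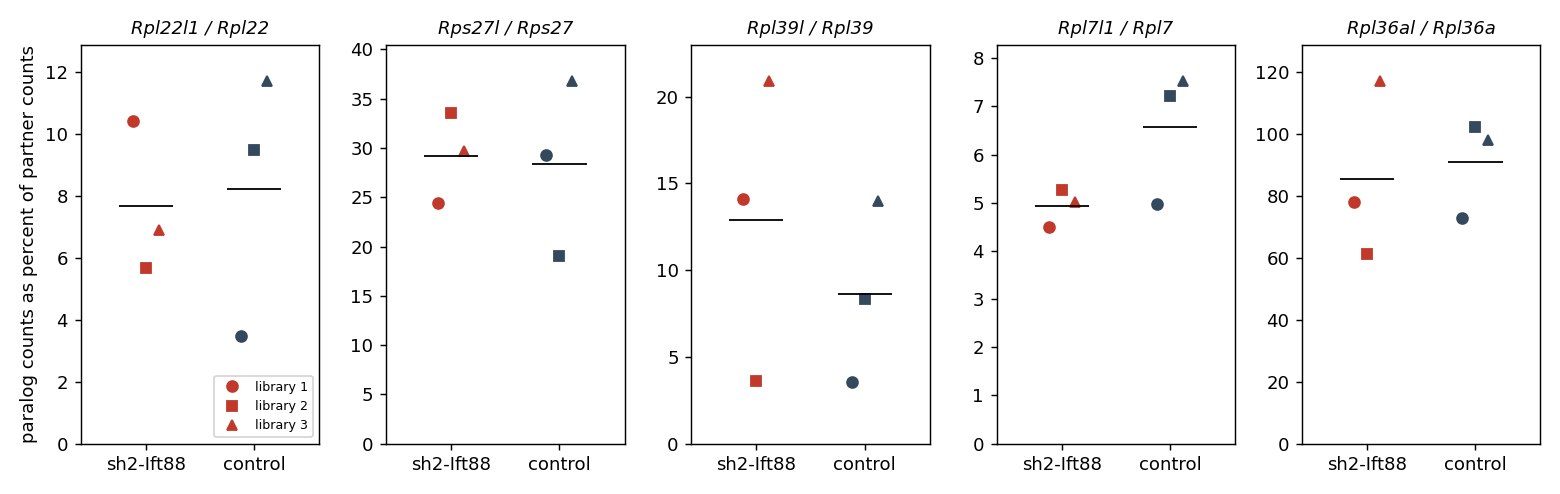
Counts of each paralog as a percent of the counts of its partner, 1 panel per pair, with 1 point per library in the 3 libraries labelled sh2-Ift88 (left of each panel) and the 3 controls (right) and a line at each mean. Rpl22l1 runs from 3.47% to 11.7% of Rpl22 and Rpl39l from 3.56% to 20.9% of Rpl39, while the groups overlap in every panel.

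Of the paralogs, 5 had counts enough to be set against their partners in every library, and the groups overlapped in each pair. Exact permutation tests (two-sided) on the log2 ratio gave p-values from 0.3 to 1, and all were 1 after Benjamini-Hochberg adjustment over 5 pairs. The ratios below are counts of the paralog as a percent of counts of its partner, not per length, and are set only against the same ratio in other libraries.

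Rpl22l1 and Rpl22 encode like proteins (67.5% identical coding bases), and in mouse the Rpl22 protein represses its paralog. Rpl22l1 was at 61.3, 19.5 and 31.3 CPM in libraries labelled sh2-Ift88 and at 19.5, 32.2 and 43.6 CPM in controls, while Rpl22 was at 589, 343 and 454 CPM in libraries labelled sh2-Ift88 and at 563, 339.8 and 373 CPM in controls. Rpl22l1 was thus highest in sh2-Ift88 1 and lowest in sh2-Ift88 2 and control 1. As a percent of Rpl22 it was 10.4%, 5.68% and 6.89% in libraries labelled sh2-Ift88 and 3.47%, 9.47% and 11.7% in controls, a log2 difference of 0.027 (exact permutation test, p = 1). The lowest and highest libraries, both controls, differed 3.37-fold. The sign turned without control 1 (-0.51) and without sh2-Ift88 1 (-0.22), and the difference was 0.37 without control 3.

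Rpl39l, a paralog best known from the testis, shares 85% of coding bases with the X-linked Rpl39. It was at 42.04, 6.25 and 63.2 CPM in libraries labelled sh2-Ift88 and at 18.7, 14.4 and 40.5 CPM in controls, so both its lowest and its highest library were labelled sh2-Ift88. As a percent of Rpl39 it was 14.1%, 3.60% and 20.9% in libraries labelled sh2-Ift88 and 3.56%, 8.34% and 14.0% in controls, a 5.85-fold range. The log2 difference of the ratio was 0.45 (exact permutation test, p = 0.5), and it ran from -0.082 without control 1 and -0.065 without sh2-Ift88 3 to 1.2 without sh2-Ift88 2. Rpl39l itself had a log2 fold change of 0.60 (standard error 0.77), which was -0.066 without sh2-Ift88 3, 1.1 without sh2-Ift88 2 and 1.16 without control 3.

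Rps27l, a p53 target in human cells, shares 76.2% of coding bases with Rps27. It was at 74.4, 53.2 and 69.02 CPM in libraries labelled sh2-Ift88 and at 76.4, 45.5 and 81.2 CPM in controls. As a percent of Rps27 it was 24.4%, 33.5% and 29.7% in libraries labelled sh2-Ift88 and 29.3%, 19.0% and 36.8% in controls, so the controls held both ends of the range. The log2 difference was 0.080 (exact permutation test, p = 0.8), and it was -0.18 without control 2 and -0.025 without sh2-Ift88 2, and 0.29 without control 3.

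Rpl7l1, with 54.4% identical coding bases the least like its partner of the 5, stood at 4.49%, 5.26% and 5.02% of Rpl7 in libraries labelled sh2-Ift88 and at 4.97%, 7.22% and 7.53% in controls. Control 1 lay within the range of the libraries labelled sh2-Ift88, and the log2 difference was -0.40 (exact permutation test, p = 0.3). It kept its sign without each library in turn, from -0.59 without control 1 to -0.29 without control 3. Rpl36al and the X-linked Rpl36a (87.7% identical coding bases) had counts of the same order: the paralog stood at 77.9%, 61.3% and 117% of its partner in libraries labelled sh2-Ift88 and at 72.9%, 102% and 97.9% in controls. The log2 difference was -0.13 (exact permutation test, p = 0.8) and turned to 0.087 without sh2-Ift88 2, and it was -0.38 without sh2-Ift88 3.

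The names below the floor were near absence. Rpl3l, the paralog of Rpl3 in heart and skeletal muscle, had 4, 3 and 1 counts in libraries labelled sh2-Ift88 and 2, 8 and 1 in controls. Rpl10l, the testis paralog of Rpl10, had 0, 1 and 1 counts in libraries labelled sh2-Ift88 and 0, 2 and 0 in controls, where a count of 0 allows up to 3 by counting error alone. Their partners Rpl3 and Rpl10 shared 73.2% and 84.7% of coding bases with them.

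**Figure D5:**
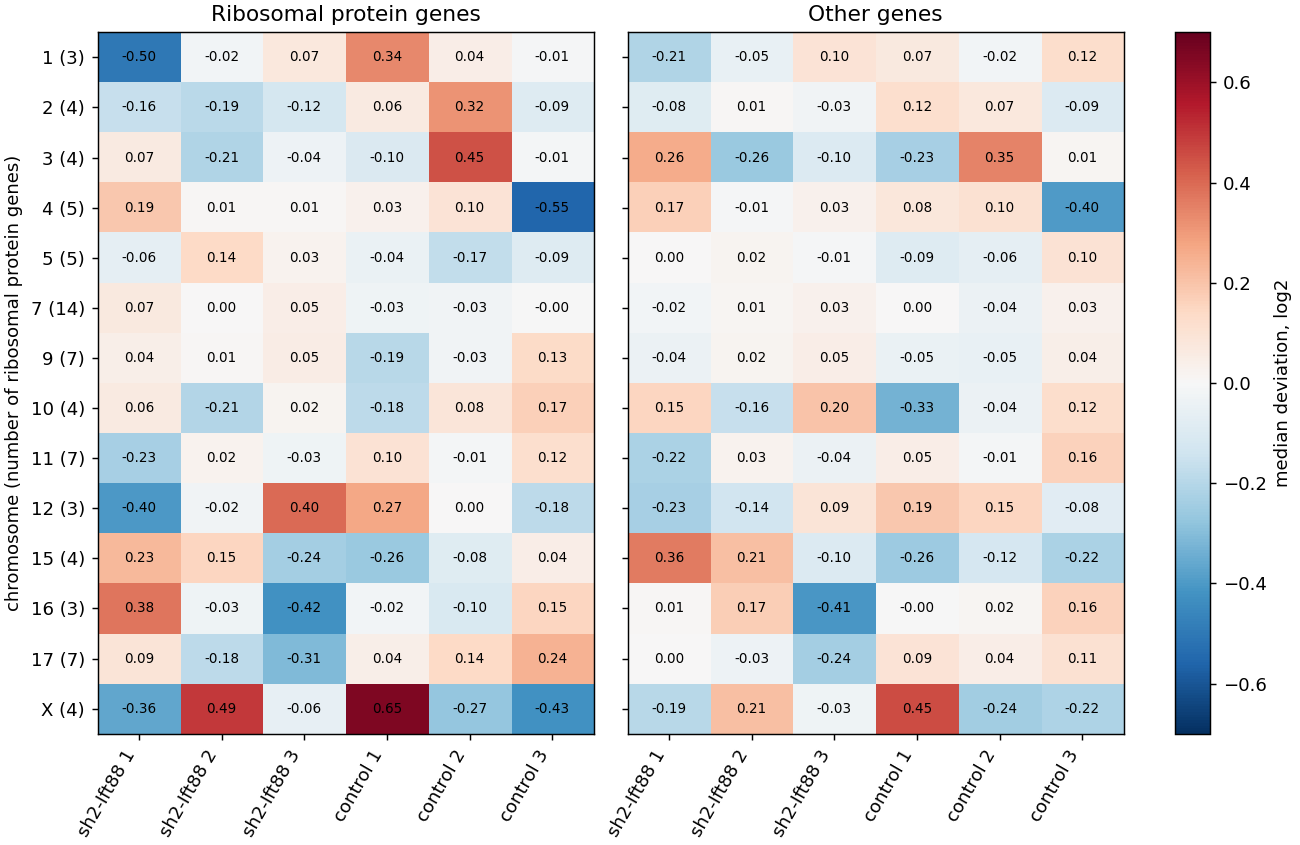
Median deviation in log2 CPM of the ribosomal protein genes (left) and of other genes (right) on each of 14 chromosomes that hold at least 3 of the 82, with the 3 libraries labelled sh2-Ift88 left of the 3 controls. On the X chromosome both panels are highest in control 1, with 0.65 and 0.45.

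Departures of the genes from their shared level mostly ran parallel to those of other genes on the same chromosome. For each gene the mean over the 6 libraries and the library's median over the set were taken off its log2 CPM, and the same was done for 9804 other genes with a mean of at least 10 CPM, by the chromosomes of the GENCODE annotation. Over the 14 chromosomes with at least 3 of the genes, the median deviation of the ribosomal protein genes and that of the other genes correlated with r = 0.768, 0.712 and 0.817 in libraries labelled sh2-Ift88 and 0.881, 0.829 and 0.815 in controls. This is a description over chromosomes, whose genes share a library. Some chromosomes went otherwise in single libraries. Chromosome 16 in sh2-Ift88 1 was at 0.375 for the ribosomal protein genes and at 0.007 for the other genes. Chromosome 15 in control 3 was at 0.045 and -0.219.

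Of the 14 chromosomes, X gave the widest median departure. Rpl10, which joins the large subunit last, was at 228, 241 and 235 CPM in libraries labelled sh2-Ift88 and at 479, 138 and 213 CPM in controls. Rps4x, a small subunit gene, was at 792, 1112 and 915 CPM in libraries labelled sh2-Ift88 and at 1725, 579.6 and 851 CPM in controls. Both were highest in control 1 and lowest in control 2, so the libraries labelled sh2-Ift88 lay inside the range of the controls. Rpl36a was at 81.97, 96.1 and 84.4 CPM in libraries labelled sh2-Ift88 and at 150.03, 52.5 and 85.6 CPM in controls, and Rpl39 was at 298, 173.5 and 303 CPM in libraries labelled sh2-Ift88 and at 526, 173 and 290.3 CPM in controls. The median deviation of these 4 genes was -0.36, 0.49 and -0.056 in libraries labelled sh2-Ift88 and 0.65, -0.27 and -0.43 in controls. For 302 other X-linked genes it was -0.19, 0.21 and -0.03 in libraries labelled sh2-Ift88 and 0.45, -0.24 and -0.22 in controls, with the same sign in all 6 libraries. In sh2-Ift88 2 Rpl39 went against the others, at -0.24.

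Chromosome 4 was low in control 3. There the deviation was -0.69 for Rpl11, -0.55 for Rpl22 and -0.34 for Rps6, and 680 other genes on that chromosome had a median of -0.40. Rps20, on the same chromosome, was the exception, at -0.076. This is a library in which Rpl11 was low and Rpl5, which lies on chromosome 5, was not. In control 2 the pair parted the other way, with deviations of 0.301 for Rpl11 and -0.192 for Rpl5. On chromosome 3, which holds Rpl22l1, Rpl34, Rps27 and Rps3a, control 2 was high, with 0.45 for these genes and 0.35 for the other genes. Control 3, with chromosome 4 low, gave the highest share of Rpl22l1 in Rpl22, and there chromosome 3, which holds Rpl22l1, was near 0 (0.014 for the other genes). Control 2, with chromosome 3 high, gave the lowest share of Rps27l in Rps27, and there chromosome 9, which holds Rps27l, was at -0.054 for the other genes. The part of the chromosomes in these ratios was not tested.

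Genes on other chromosomes showed the same in single libraries. Chromosome 16 was low in sh2-Ift88 3, with -0.42 for Rpl24, Rpl35a and Rpl39l and -0.41 for the other genes, of which 7.59% lay above 0, although Rpl39l itself was at 1.38. Chromosome 17, which holds Rpl7l1 and Rpl36, was at 0.092, -0.18 and -0.31 for 7 ribosomal protein genes in libraries labelled sh2-Ift88 and at 0.043, 0.14 and 0.24 in controls, and at 0.002, -0.033 and -0.24 for the other genes in libraries labelled sh2-Ift88 and at 0.093, 0.044 and 0.11 in controls. In sh2-Ift88 1 Rpl7l1 was at -0.827 and Rpl36 at -0.354, well below both chromosome 17 medians. In sh2-Ift88 3, where both medians were lowest, Rpl7l1 was at -0.029 and Rpl36 at -0.333. Chromosome 1, with Rpl7, Rpl31 and Rpl37a, was low in sh2-Ift88 1, at -0.50 for these genes and -0.21 for the other genes. On chromosome 2, which holds Rpl7a and Rpl35, the other genes were at -0.083, 0.006 and -0.027 in libraries labelled sh2-Ift88 and at 0.115, 0.074 and -0.093 in controls. The median of chromosome 7, with 14 ribosomal protein genes the largest set, stayed within 0.07 of 0 in every library. Its single genes ran from -0.263 in control 3 to 0.351 in sh2-Ift88 1. The part of the chromosomes in the differences between the groups was not tested.

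Other genes of the ribosome and of the TOP class did not pass either. For the ribosomal proteins outside the name rule described here, the groups overlapped. Gnb2l1, the scaffold protein RACK1 on the small subunit, was at 1304, 1090.4 and 1409.7 CPM in libraries labelled sh2-Ift88 and at 1766, 978 and 1935 CPM in controls. Fau, which encodes a small subunit protein fused to a ubiquitin-like domain, was at 142.6, 87.8 and 111 CPM in libraries labelled sh2-Ift88 and at 154, 99.3 and 94.1 CPM in controls. Of 20 TOP RNAs that encode no ribosomal protein, such as elongation factor mRNAs, 14 were above 0 and 6 below. Their median log2 fold change was 0.14, with 0 called by edgeR's quasi-likelihood test. Their smallest p was 0.0529, for the histone chaperone Nap1l1, at 318 ± 145 CPM in libraries labelled sh2-Ift88 and 173 ± 39.4 CPM in controls (SD, n = 3 each, edgeR's quasi-likelihood test, unadjusted). The list of 20 includes the noncoding RNAs Gas5 and Snhg1, both above 0 (log2 fold change 0.26 each). The TOP RNAs of the list thus had a median on the other side of 0 from that of the ribosomal protein genes. The difference between the lists was not tested. Of 78 tested mitochondrial ribosomal protein genes, 53 were below 0 and 25 above (median -0.14), again with 0 called.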

How the data were processed

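Libraries were made from total RNA with a stranded kit, per the labels' protocols. The deposited values are raw read counts per gene, 1 table per library, aligned with BWA to mm9 per the submitters' processing notes. No source used here names the counting program, its annotation or strand setting, or how multiply matching reads were treated. The 5 closing tallies of each table were left out, among them reads outside features, which made up 18.8% to 39.5% of tallied reads. For the test, edgeR 4.0.16 (R 4.3.3) was run on the counts (filterByExpr, TMM, glmQLFit with robust=TRUE, glmQLFTest, Benjamini-Hochberg at 0.05), after a test on simulated counts. DESeq2 1.42.0 was an alternative. CPM, ratios and exact permutation tests were computed from the deposited counts. Coding and transcript lengths (principal transcripts) and chromosomes came from GENCODE M21, which matched 31490 of 34591 gene rows by symbol, and start sequences from RefSeq. Both are of build GRCm38, not mm9, and were joined by symbol alone. Counts of overlapping genes and near-identical copies are uncertain. The genes and lists were chosen with earlier results of these data known. Named genes were paralogs and partners, the P stalk, 9 genes picked by role, the 5 of smallest p per direction, those whose groups do not overlap, and the 5 most and least variable and the 5 highest and lowest per kilobase. Some genes are not reported here by name.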

Additional observations from a re-analysis of the deposited data

How the results depend on the processing

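No paired analysis was possible because the labels give no replicate numbers; the numbers used here follow accession order and pair no libraries. No ribosomal protein gene passed under any alternative. Over all genes, edgeR called 0, against 56 with DESeq2 and 6 without the filter on low counts; the cause was not tested. Leaving out each library in turn, the log2 difference (sh2-Ift88 minus control) of the summed level ran from -0.302 to 0.122. That of the ratio to its partner ran from -0.506 to 0.37 for Rpl22l1, from -0.182 to 0.294 for Rps27l, from -0.0819 to 1.2 for Rpl39l and from -0.379 to 0.0873 for Rpl36al. Within them, reversed values were 0.0387 without control 1 and 0.0572 without control 3 for the sum, and -0.217 without sh2-Ift88 1 for Rpl22l1. They were -0.0251 without sh2-Ift88 2 for Rps27l and -0.0654 without sh2-Ift88 3 for Rpl39l. The subunit ratio turned to -0.0516 with mean log2 CPM and -0.0327 per kilobase of coding sequence. Fold changes turned to -0.136 for Rpl3 (library totals), -0.0664 for Rpl39l (without sh2-Ift88 3, and up to 1.16 without others) and -0.11 for Rpl8 (without sh2-Ift88 1, and up to 0.487 without others). Of 35 named genes, 27 changed sign under some alternative. These 35 leave out genes named only for their level per kilobase, their pseudogene rows or their chromosome. With library totals alone, which lowered the median of all genes to -0.326, 12 did, and under other alternatives that keep all libraries 2 did, Rps19 and Rps9. Leaving rows over 1% of the counts of any library out of the TMM factors, chosen after seeing the data, gave -0.0924 for the sum. Transcript length and added pseudogene rows, chosen likewise, moved the order of levels as described. With 3 libraries a group, only large differences can pass.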
